A study of Mus musculus with 14 samples.

Results

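To follow how the genes for the signals of inflammation come to be occupied as macrophages are formed, peaks of transcription factor (TF) binding were collected at 10 loci. The loci were those of Tnf, Il1a, Il1b, Il1rn, Il6, Il10, Il12b, Tgfb1, Ptgs2 and Nos2. A locus was the RefSeq span of the gene on the mouse genome build GRCm38 (mm10) with 20 kb on each side, and a peak belonged to it when at least 1 bp lay inside. The 10 genes are among 21774 protein-coding genes whose windows were drawn in the same way. Of the 158488 peaks in 14 lists, 139 fell in these windows, which covered 527.0 kb in all. No window overlapped another, and 0 peaks lay in more than 1 window.

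Macrophages release cytokines such as TNF and interleukin-1 when they meet microbes or damaged tissue, and these proteins raise the alarm in neighbouring cells. Other products of the same cells, among them the interleukin-1 receptor antagonist, IL-10 and TGF-β1, hold the response in check, while the inducible enzymes cyclooxygenase-2 and nitric oxide synthase make prostaglandins and nitric oxide. PU.1 is an ETS family TF that marks the regulatory regions of myeloid cells, and C/EBPβ is a basic leucine zipper TF that acts with it and is long known as an activator of the interleukin-6 gene.

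The lists were made by chromatin immunoprecipitation and sequencing (ChIP-seq) from populations that arise from a mouse embryonic stem cell line, of strain 129 in the labels, with GFP under control of Brachyury. All groups share this reporter background and differ in stage and antibody, and in culture, since cytokines were supplied for the steps after HB. Mesoderm (MES) cells were positive for the reporter and negative for the receptor Flk1, and hemangioblasts (HB) were positive for both. Hemogenic endothelium (HE) was Tie2 and Kit positive and CD41 negative, hematopoietic progenitors (HP) were CD41 positive, and macrophages (MAC), grown from the CD41 positive cells, expressed CD11b. C/EBPβ was mapped at the 5 stages, PU.1 and RUNX1 in HP and MAC, GATA2 in HB and HP, ELK4 in MES, and GATA1 and GFI1B in HP. Each factor at each stage had 1 list, so no value below has a replicate error and no test between stages could be made. Lists ran from 72 peaks (MAC RUNX1) to 82866 (MAC PU.1), and the threshold for calling was set by the authors for each list, so that their lengths do not measure the amount of binding. The lists hold positions without read counts, so the depth behind a peak cannot be read from them. The supplement of the study reports total aligned reads, which were not used here. As a check on the MAC label, 5 of 5 macrophage marker loci (Itgam, Adgre1, Cd68, Lyz2 and Fcgr1) had a MAC PU.1 peak, with a median of 10.0 peaks, against 79.1% of all coding gene windows. MAC PU.1 also lay at 5 of 5 progenitor, 3 of 3 endothelial and 3 of 3 mesoderm and hemangioblast marker loci, with medians of 7.0, 7.0 and 2.0 peaks. Of 3 T cell marker loci, Cd8a had 0 MAC PU.1 peaks, Cd3e had 3 and Cd4 had 13, so that a peak in a window did not of itself tell cell types apart.

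The sequences below carry the sites to which the results return. The Ptgs2 promoter (chr1:150099781-150100030, plus strand) and the Il6 promoter (chr5:30012864-30013113, plus strand) are the 250 bases before the transcription start site (TSS), and are shown because they lie under C/EBPβ peaks and hold a C/EBP word. C/EBPβ peaks in MAC also lie over the same stretch of Tnf, Il1b, Il12b and the internal starts of Il1rn, none of which holds any of the words searched, although the peaks at the Il1b promoter, which reach past this stretch, hold a C/EBP word. Nos2 was not among the promoters searched, and the MAC C/EBPβ peak over its same stretch holds C/EBP, RUNX and NF-kB words. Of the Ptgs2 stretch, 94 bases also lie in an exon of the non-coding gene Ptgs2os. The other stretches are 200 bases around the middle of a merged region. Those of Il1b (chr2:129373353-129373552 and chr2:129380890-129381089, minus strand), Il12b (chr11:44398828-44399027, plus strand), Tnf (chr17:35219659-35219858, minus strand) and Il1a (chr2:129320018-129320217, minus strand) lie upstream of their genes, and that of Il10 (chr1:131038226-131038425, plus strand) lies downstream. Of the 6 stretches, those of Tnf, Il1a, Il12b and the far one of Il1b already held a peak in HP. Each is written 5′ to 3′ on the strand of its gene, from RefSeq GRCm38, and capitals mark matches on either strand to the words searched. For C/EBP these were TTGCGCAA, TTGCGTAA, TTGCACAA and TTGCATAA. The word of PU.1 was GAGGAAGT. The word of RUNX factors was TGTGGTT, and that of the AP-1 family was TGANTCA. For the GATA factors the words were AGATAAC or, with another last base, AGATAAG. The NF-kB word was the usual degenerate site of that factor. No word of one factor contains that of another.
Ptgs2 promoter: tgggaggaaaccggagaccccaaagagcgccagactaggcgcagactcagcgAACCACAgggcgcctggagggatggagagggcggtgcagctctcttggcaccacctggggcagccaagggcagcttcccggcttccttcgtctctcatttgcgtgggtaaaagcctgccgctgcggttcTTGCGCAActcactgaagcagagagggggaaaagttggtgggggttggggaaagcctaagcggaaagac
Il6 promoter: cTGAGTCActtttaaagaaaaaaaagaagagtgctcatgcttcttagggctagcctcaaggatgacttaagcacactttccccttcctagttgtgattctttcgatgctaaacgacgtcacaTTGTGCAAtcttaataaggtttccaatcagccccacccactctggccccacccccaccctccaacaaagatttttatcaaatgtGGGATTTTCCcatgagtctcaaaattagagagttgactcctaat
Il1b upstream, near: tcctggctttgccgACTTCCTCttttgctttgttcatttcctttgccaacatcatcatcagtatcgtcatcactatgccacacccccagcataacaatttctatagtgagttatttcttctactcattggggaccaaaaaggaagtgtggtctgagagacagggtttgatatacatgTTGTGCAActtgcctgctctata
Il1b upstream, far: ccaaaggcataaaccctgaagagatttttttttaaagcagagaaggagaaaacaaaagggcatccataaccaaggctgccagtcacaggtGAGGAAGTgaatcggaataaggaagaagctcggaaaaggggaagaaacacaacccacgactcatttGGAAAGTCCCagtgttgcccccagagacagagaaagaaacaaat
Il12b upstream: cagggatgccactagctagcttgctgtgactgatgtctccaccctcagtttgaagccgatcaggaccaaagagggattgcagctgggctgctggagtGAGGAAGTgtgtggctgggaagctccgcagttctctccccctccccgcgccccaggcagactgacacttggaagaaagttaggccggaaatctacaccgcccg
Tnf upstream: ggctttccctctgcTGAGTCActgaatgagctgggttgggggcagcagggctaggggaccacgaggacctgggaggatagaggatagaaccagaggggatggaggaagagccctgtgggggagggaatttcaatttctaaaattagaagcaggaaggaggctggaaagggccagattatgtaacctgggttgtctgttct
Il1a upstream: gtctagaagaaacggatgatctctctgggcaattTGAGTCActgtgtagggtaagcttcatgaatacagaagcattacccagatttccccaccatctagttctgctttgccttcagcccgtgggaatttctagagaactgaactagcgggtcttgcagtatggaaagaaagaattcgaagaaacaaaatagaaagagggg
Il10 downstream: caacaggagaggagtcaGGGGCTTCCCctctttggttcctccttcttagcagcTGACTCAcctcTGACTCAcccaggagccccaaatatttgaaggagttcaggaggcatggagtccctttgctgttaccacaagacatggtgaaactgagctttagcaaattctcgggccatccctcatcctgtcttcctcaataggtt

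In the Ptgs2 promoter the capitals are a RUNX word at -198 to -192 and the C/EBP word TTGCGCAA at -69 to -62 from the TSS. In the Il6 promoter they are AP-1 at -249 to -243, C/EBP at -128 to -121 and NF-kB at -44 to -35. The near Il1b stretch holds a PU.1 and a C/EBP word, the far one a PU.1 and an NF-kB word, and the Il12b stretch a PU.1 word. The Tnf and Il1a stretches hold an AP-1 word each, and the Il10 stretch an NF-kB and 2 AP-1 words. Among 32851 RefSeq promoters of the same length, 1.89% held the C/EBP word, 2.44% PU.1, 4.40% RUNX, 4.32% GATA, 6.75% AP-1 and 3.90% NF-kB. The table of promoters held 8 of the 10 members, all but Il10 and Nos2, of which 2 carried the C/EBP word (Il6 and Ptgs2), 0 the PU.1 word, 1 the RUNX word (Ptgs2), 0 the GATA word, 3 the AP-1 word (Il1a, Il1rn and Il6) and 1 the NF-kB word (Il6). At Il1a, 214 of the 250 bases lie in an exon of a predicted Il1a transcript that starts further upstream, and the AP-1 word at -12 to -6 is among them. A match shows that the letters are there, not that a factor binds them.

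The cytokine loci were occupied by PU.1 and C/EBPβ, and most of the listed peaks came from the MAC lists of these factors, the longest of all. Relative to list length the order was not the same. The loci held 0.0919% of the MAC C/EBPβ list, against 0.184% for HP, 0.28% for HB and 0.17% for MES, while HE had 0 peaks there. For PU.1 they held 0.0809% of the MAC list and 0.11% of that of HP. The MES, HB and HP shares rest on 2, 2 and 5 C/EBPβ peaks and 12 PU.1 peaks, and the differences were not tested. MAC PU.1 peaks lay at 10 of 10 loci, against 79.1% of all coding gene windows, and MAC C/EBPβ peaks at 10 of 10, against 73.8%. In HP, PU.1 lay at 5 of 10 loci (38.2% of all windows) and C/EBPβ at 5 of 10 (14.8%). C/EBPβ lay at 2 of 10 loci in MES (6.47%) and at 2 of 10 in HB (4.24%). The other 8 lists had 0 peaks at the loci. For 0 of 10 loci, the exact Clopper-Pearson 95% interval reaches 30.8%, which covers the share of all windows in each of them: 0.684% for HE C/EBPβ, 4.66% for MES ELK4, 0.363% for HB GATA2, 1.75% for HP GATA1, 3.36% for HP GATA2, 11.8% for HP GFI1B, 7.79% for HP RUNX1 and 0.478% for MAC RUNX1. With 10 loci, the lack of these factors can therefore not be told apart from their share of all genes. With high shares of all genes in the MAC lists, having a peak says little there, and the number of peaks and their places are given below.

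**Figure D1:**
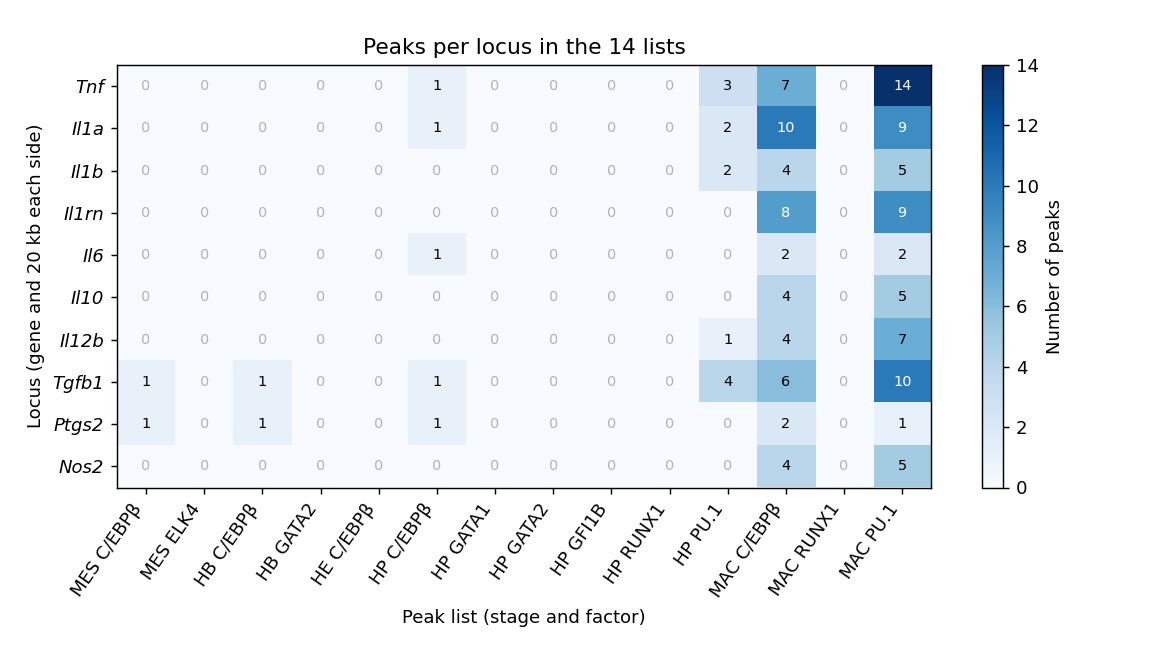
Number of peaks at each of the 10 loci (rows) in each of the 14 lists (columns, ordered by stage), with 1 list per column and darker blue for more peaks. The MAC C/EBPβ and MAC PU.1 columns are filled at every locus, from 1 to 14 peaks, while 8 columns hold only 0.

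Before blood progenitors arose, C/EBPβ occupied 2 of the loci, and it did so at the same places in MES and HB. The first was the promoter of Ptgs2, which encodes cyclooxygenase-2, the inducible enzyme of prostaglandin synthesis. Its C/EBPβ peaks were centred at -75 bp from the TSS in MES, -64 bp in HB, -45 bp in HP and -68 bp in MAC, over the TTGCGCAA word printed above. PU.1 was listed there in MAC, centred at -128 bp. The merged region (chr1:150099703-150100185) was bound in 5 lists, and HE was the stage at which C/EBPβ was mapped without a peak there. The second place lay in the Tgfb1 window but at another gene. It was the promoter of Ccdc97, where C/EBPβ was centred 3 bp from the Ccdc97 TSS in MES, 17 bp in HB, 17 bp in HP and 20 bp in MAC, and MAC PU.1 at 112 bp. This region (chr7:25718723-25719254) also held a C/EBP word. It lay 32036 bp from the TSS of Tgfb1 by the MES peak. Of the members, Ptgs2 was thus the gene with C/EBPβ at its own promoter from MES on. HE C/EBPβ had 132 peaks in all, so a missing HE peak cannot be told apart from a short list. By the supplement of the study, its threshold was also the strictest of the C/EBPβ lists. The supplement gives no enrichment by quantitative PCR for C/EBPβ in MES or HB, and states that such samples were sequenced all the same.

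In HP, occupancy was seen in the windows of Il1a, Il1b, Tnf, Il6, Il12b and Tgfb1 beside that of Ptgs2, with few peaks at each. PU.1 had 12 peaks, with 3 at Tnf, 2 at Il1a, 2 at Il1b, 1 at Il12b and 4 at Tgfb1. C/EBPβ had 5 peaks, with 1 each at Tnf, Il1a, Il6, Tgfb1 and Ptgs2. Il1rn, Il10 and Nos2 had 0 peaks of either factor in HP, as had most coding gene windows for each factor, and all of their peaks were listed in MAC. The HP lists held 10943 PU.1 and 2716 C/EBPβ peaks and the MAC lists 82866 and 55471. A site listed in MAC alone can therefore not be told apart from one that fell below the threshold in HP. By the supplement of the study, the threshold was stricter in HP than in MAC for C/EBPβ, and less strict in HP for PU.1.

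Only a part of the HP peaks lay nearest to the members themselves. For PU.1, 4 of 12 peaks had the TSS of a member as the nearest coding TSS, and for C/EBPβ 2 of 5. The same share was not computed for all coding genes, and the windows of Tnf and Tgfb1 hold 4 and 5 other coding genes. At Il1b, which encodes the main secreted interleukin-1 agonist, HP PU.1 was centred at -39 bp, on the promoter, and at -9855 bp. At Il12b, which encodes the subunit shared by IL-12 and IL-23, HP PU.1 was centred at -1122 bp, over the PU.1 word printed above. At Il1a it lay at -10164 bp. At Il6, HP C/EBPβ was centred at 1743 bp inside the gene, over an exon, and this peak held a C/EBP word. The remainder lay closer to neighbours. In the Tnf window HP PU.1 was centred 954 and 1871 bp from the TSS of Lst1, a gene of leukocytes, and another site lay at -17844 bp from Tnf, beyond Lta. In the Il1a window both factors lay at the promoter of Ckap2l, a gene of the mitotic spindle, with PU.1 202 bp and C/EBPβ 438 bp from its TSS. In the Tgfb1 window 3 of the 4 PU.1 peaks lay nearest to B9d2, a gene of the primary cilium, at 24, 547 and 2587 bp.

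Sites bound in HP were found again in MAC. Of the HP PU.1 peaks at the loci, 11 of 12 (91.7%, exact 95% interval 61.5 to 99.8%) overlapped a MAC PU.1 peak, against 97.0% of the whole HP list. The exception was the peak 24 bp from the TSS of B9d2. Of the HP C/EBPβ peaks, 5 of 5 (47.8 to 100%) overlapped a MAC C/EBPβ peak, against 91.4% of the whole list. In the other direction, 11 of 67 MAC PU.1 peaks (16.4%, 8.49 to 27.5%) and 5 of 51 MAC C/EBPβ peaks (9.8%, 3.26 to 21.4%) had a peak of the same factor in HP, against 12.8% and 4.48% of the whole lists. These intervals hold the value of the whole list in each case, and they cover counting error only. Most sites at the loci were therefore listed in MAC alone, as in the lists at large, which were longer in MAC than in HP for both factors.

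In MAC the 10 loci held 67 PU.1 peaks, from 1 at Ptgs2 to 14 at Tnf, and 51 C/EBPβ peaks, from 2 at Il6 and Ptgs2 to 10 at Il1a. The median locus had 6.0 PU.1 peaks and 4.0 C/EBPβ peaks, and the median coding gene window 4.0 and 2.0. Because windows differ in length, from 42.6 kb at Tnf to 79.4 kb at Nos2, peaks were also counted per 10 kb. On this scale the median of the loci was 1.19 for PU.1, against 0.524 over all coding genes, and 0.872 for C/EBPβ, against 0.317.

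The order of the loci was alike for both factors. For PU.1 the density was 3.28 peaks per 10 kb at Tnf, then 1.78 at Il1a, 1.72 at Tgfb1, 1.65 at Il1rn, 1.28 at Il12b, 1.11 at Il10, 1.07 at Il1b, 0.629 at Nos2, 0.427 at Il6 and 0.207 at Ptgs2. Of all coding gene windows, 0.115% were at least as dense as that of Tnf, while 56.7% of windows were at least as dense as that of Il6 and 70.6% at least as dense as that of Ptgs2. For C/EBPβ the density was 1.98 at Il1a, 1.64 at Tnf, 1.46 at Il1rn, 1.03 at Tgfb1, 0.886 at Il10, 0.858 at Il1b, 0.732 at Il12b, 0.504 at Nos2, 0.427 at Il6 and 0.415 at Ptgs2. Here 0.142% of windows were at least as dense in C/EBPβ as that of Il1a, 0.707% as that of Tnf and 1.48% as that of Il1rn. At the sparse end, 40.2% were at least as dense as Il6 and 41.4% as Ptgs2. By the number of peaks, with no regard to length, these loci stood out less. Of all coding genes, 5.58% had at least as many PU.1 peaks as Tnf, and 4.74% had at least as many C/EBPβ peaks as Il1a, 11.7% as Tnf and 8.42% as Il1rn. Since each window has the same flanks, the density is highest for short genes at a given number of peaks. Most neighbours in either order differ by few peaks, and with 1 list each no error can be set on the order. Counting only the peaks nearest to the TSS of the member, Tnf keeps 3 of its 14 PU.1 and 2 of its 7 C/EBPβ peaks, close to the 2 and 2 of Il6 and the 1 and 2 of Ptgs2, whereas Il1a keeps 8 of 9 and 9 of 10. The place of Tnf in the order is thus that of its window and not of peaks nearest to the gene.

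**Figure D2:**
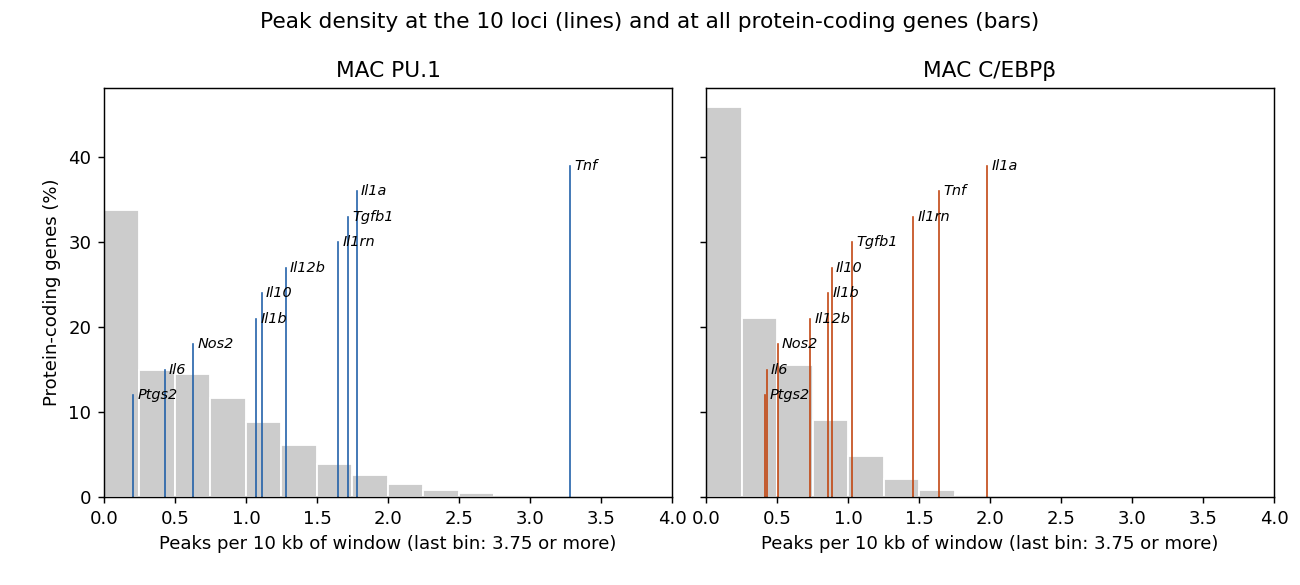
Peaks per 10 kb of window for MAC PU.1 (left) and MAC C/EBPβ (right). Grey bars give the percentage of all coding genes in bins of density, and each coloured line marks 1 of the 10 loci, its height serving only to place the name. Tnf stands at 3.28 for PU.1 and Il1a at 1.98 for C/EBPβ, in the sparse tail of the bars, and Il6 and Ptgs2 stand among the bulk of genes.

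Among the alarm cytokines, Tnf had the most PU.1 peaks, though many of them lay at its neighbours. The gene (chr17:35199367-35202007, minus strand) sits in the lymphotoxin cluster with Lta, Ltb, Lst1 and Nfkbil1, and 3 of its 14 MAC PU.1 peaks and 2 of its 7 C/EBPβ peaks had the Tnf TSS as the nearest. These were PU.1 at -77, 790 and 1366 bp and C/EBPβ at -179 and 1335 bp, the promoter and the intronic part of the gene. Upstream of Lta, which encodes lymphotoxin-α, PU.1 was centred at -6474, -12790, -14677 and -17048 bp and C/EBPβ at -6213 and -7973 bp from Tnf. Around Lst1, PU.1 was centred 219, 952, 1823 and 2023 bp from its TSS and C/EBPβ at 89 bp. Ltb, which encodes the membrane anchor of the lymphotoxin complex, had PU.1 at 1293 and 1393 bp and C/EBPβ at 1349 bp. The most upstream region (chr17:35219467-35220050) was bound by both factors in HP and again in MAC, with C/EBPβ at -17660 bp in HP and -17661 bp in MAC and PU.1 at -17844 and -17835 bp. The centres of each factor kept their places, and the AP-1 word printed above lay within these peaks.

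The interleukin-1 genes differed in how their sites were arranged. Il1a (chr2:129299609-129310186, minus strand) had 10 C/EBPβ and 9 PU.1 peaks, of which 9 and 8 were nearest to its own TSS. Most of these lay upstream of the gene. Upstream regions bound by both factors lay at -4135, -6003, -10146 and -18478 bp, with C/EBPβ alone at -1721, -5071 and -8541 bp and PU.1 alone at -279, -983 and -7080 bp. Inside the gene, C/EBPβ alone was centred at 766 bp, and both factors met at 3747 bp (C/EBPβ) and 3794 bp (PU.1). Il1b (chr2:129364569-129371164, minus strand) had 5 PU.1 and 4 C/EBPβ peaks, each with the Il1b TSS as the nearest coding TSS. At its promoter PU.1 was centred at -58 bp and C/EBPβ at -91 bp. The next shared region had PU.1 at -2396 bp and C/EBPβ at -2233 bp and held both a PU.1 and a C/EBP word, while the far site at -9847 bp had PU.1 without C/EBPβ. The other peaks were C/EBPβ at 3638 bp and, beyond the gene, PU.1 at 10157 and 10842 bp and C/EBPβ at 10745 bp.

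Il1rn (chr2:24336860-24351491, plus strand), whose product blocks the interleukin-1 receptor, had 9 PU.1 and 8 C/EBPβ peaks, none of them listed before MAC. RefSeq gives it 3 coding TSS. At the outermost one the closest peak was PU.1 at -1360 bp. At the internal ones, which begin the shorter transcripts, PU.1 was centred 19 bp and C/EBPβ 29 bp from a TSS. Shared regions lay also at 4749 and 11215 bp in the gene and at -18743 and 18728 bp outside it. The antagonist thus had sites of both factors in numbers like those of Il1a. It had 0 peaks in HP, as had most coding gene windows for each factor. The windows of Il1a and Il1b had HP peaks, though in that of Il1a only 1 PU.1 peak was nearest to the gene itself.

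Il6 and Il12b, which encode cytokines that act on distant tissues and on T cells, were at the sparse end and in the middle. Il6 (chr5:30013114-30019975, plus strand) had 2 peaks of each factor. At its promoter C/EBPβ was centred at -209 bp and PU.1 at 104 bp, so that the peaks met at their edges, and their offset of 313 bp was the longest among the shared sites of the loci. The NF-kB word of the printed promoter lay in both peaks, and the C/EBP and AP-1 words in that of C/EBPβ. The other peaks were C/EBPβ at 1739 bp, where the HP peak had been, and PU.1 at -19355 bp. Il12b (chr11:44400063-44414677, plus strand) had 7 PU.1 and 4 C/EBPβ peaks, with no other gene in the window. C/EBPβ alone was centred at -134 bp. Both factors lay at -1132 bp (PU.1) and -1147 bp (C/EBPβ), where PU.1 had been present in HP, and further shared regions lay at -9776 and -19184 bp. PU.1 alone lay at -4424, -17615, 15050 and 17556 bp. Of the 7 PU.1 peaks, 3 held an NF-kB word, against 5.40% of the whole list. This was the most at any of the loci, and no test was made.

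Il10 and Tgfb1, the cytokines best known for restraining inflammation, had little in common. Il10 (chr1:131019845-131024970, plus strand) had 5 PU.1 and 4 C/EBPβ peaks, and no other gene lies in its window. Its closest sites were in the gene, with PU.1 at 1291 and 1876 bp and C/EBPβ at 1860 bp, and upstream there was PU.1 at -2533 bp. Shared regions lay downstream at 6162 and 18481 bp, and C/EBPβ alone at 10084 bp. An AP-1 word was found in 5 of its 5 PU.1 peaks and in 3 of its 4 C/EBPβ peaks, against 15.8% and 23.3% of the whole lists. This locus is singled out as that with the most such peaks, after the values were seen, and no test was made. Tgfb1 (chr7:25687002-25705077, plus strand) had 10 PU.1 and 6 C/EBPβ peaks in its window, yet 1 of each was nearest to its own TSS. Those were PU.1 at 2284 bp and C/EBPβ at 6896 bp, both intronic. The other peaks of the window were nearest to Ccdc97, B9d2 or Tmem91, so that the density of the Tgfb1 window is that of a cluster of genes.

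Of the inducible enzymes, Ptgs2 had few sites and Nos2 had as many peaks of each factor as Il1b and Il10. At Ptgs2 (chr1:150100031-150108234, plus strand) the MAC lists also held PU.1 at the promoter and 1 C/EBPβ peak at 15523 bp. Nos2 (chr11:78920787-78960226, plus strand), the synthase of nitric oxide, had 5 PU.1 and 4 C/EBPβ peaks. C/EBPβ was centred at -111 bp, in a peak that held both a C/EBP and an NF-kB word, and PU.1 was not listed there. The factors met at -4202 bp (PU.1) and -4219 bp (C/EBPβ), and in the gene PU.1 alone lay at 3541 and 7621 bp and C/EBPβ alone at 29760 bp. RefSeq gives Nos2 3 coding TSS, and the PU.1 peak at 3541 bp lay 412 bp from an internal one. The peaks at 52756, 52946 and 55661 bp fell in introns of Lgals9, which encodes a lectin.

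**Figure D3:**
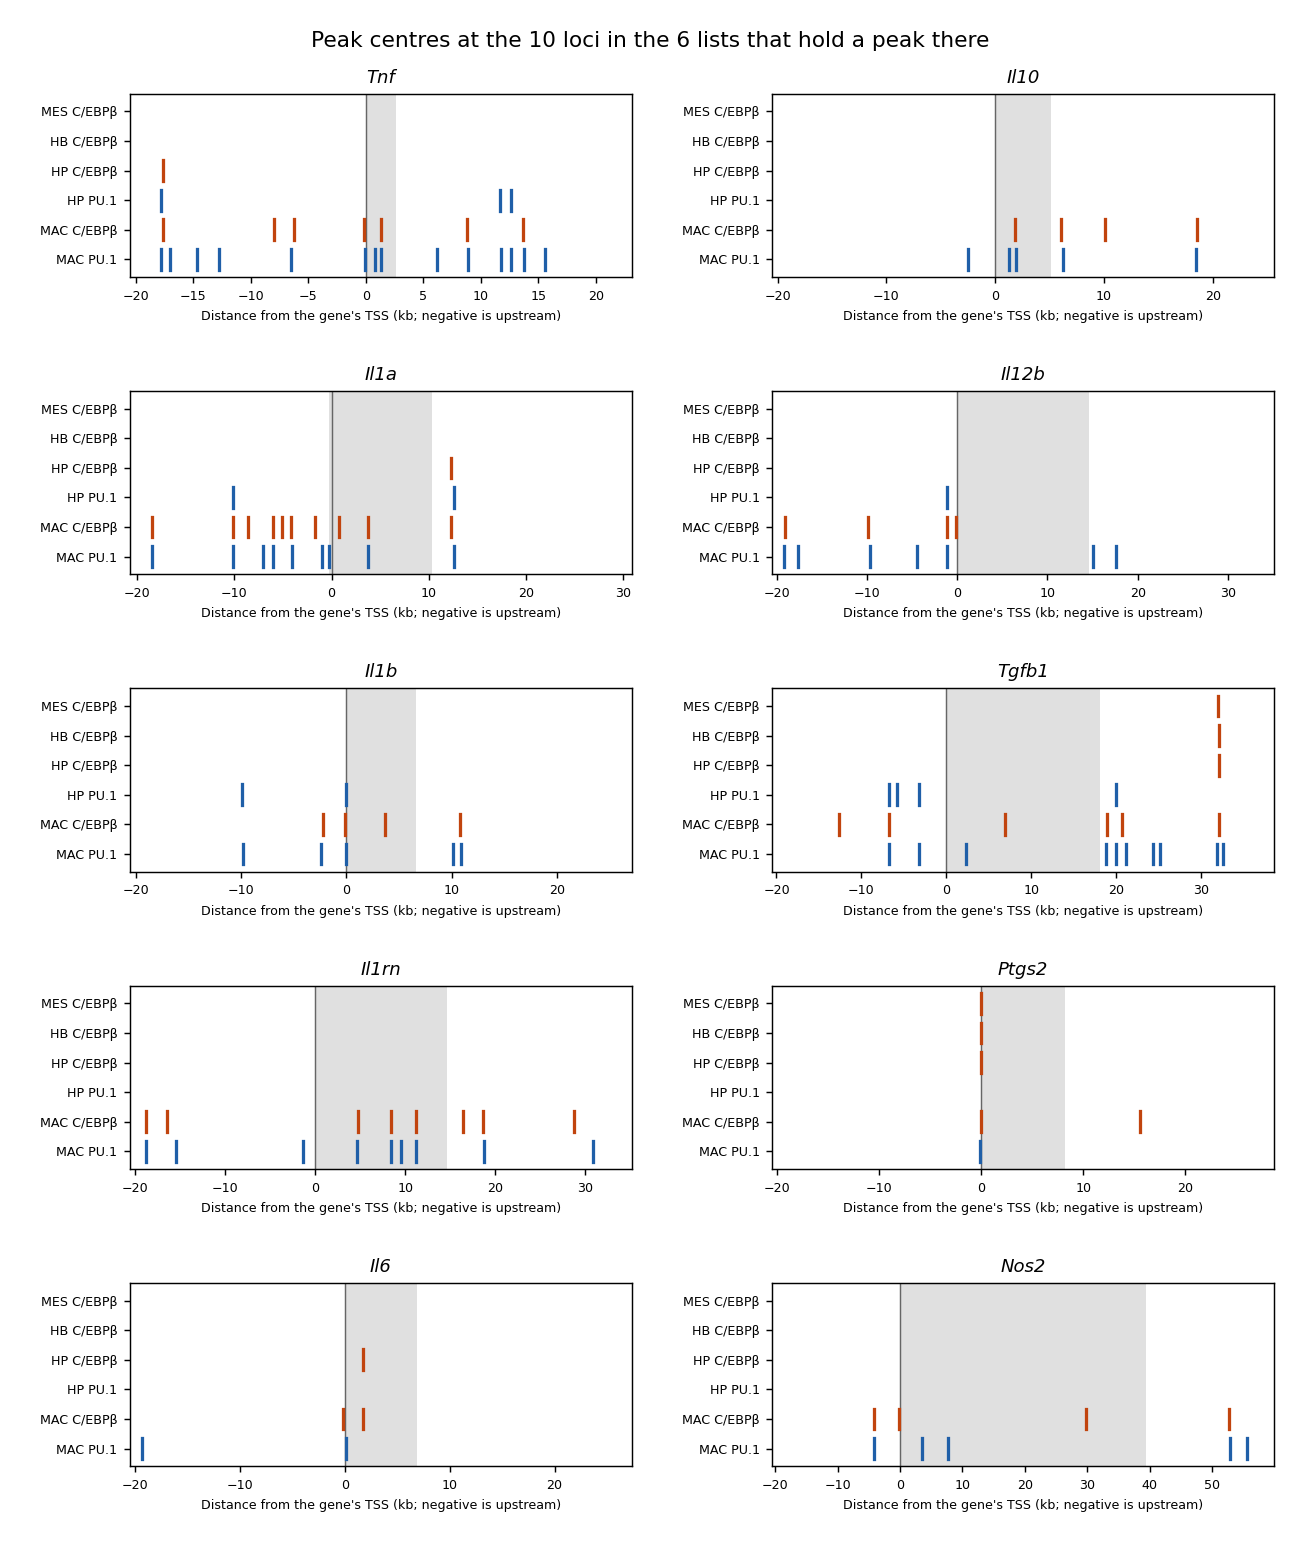
Peak centres (vertical marks, orange for C/EBPβ and blue for PU.1) at the 10 loci in the 6 lists that hold a peak there, against the distance from the TSS of the gene in kb, with the gene in grey. The marks in MES and HB are at the Ptgs2 TSS and at the far right of the Tgfb1 window, and HP marks are repeated in the MAC rows with the exception of PU.1 at -5820 bp from Tgfb1.

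Most of the members had a peak of each factor close to their own start in MAC. Within 2 kb of an own TSS, 9 of 10 members (exact 95% interval 55.5 to 99.7%) had a MAC PU.1 peak centre, against 51.4% of coding genes, and 9 of 10 had a MAC C/EBPβ centre, against 37.7%. Tgfb1 was the exception for both. Within 250 bp, a limit taken up after the positions had been seen, 7 of 10 members (34.8 to 93.3%) had C/EBPβ, against 16.2% of coding genes, and 5 of 10 (18.7 to 81.3%) had PU.1, against 27.0%. The interval for PU.1 within 250 bp holds the share of coding genes, and the other intervals lie above theirs. Since the members and the 250 bp limit were chosen with results of these data known, these intervals do not test whether either factor stands apart. The 5 genes with PU.1 so close, Tnf, Il1b, Il1rn, Il6 and Ptgs2, had C/EBPβ too, and Il12b and Nos2 had C/EBPβ alone. Counted over peaks, 25 of 67 MAC PU.1 peaks at the loci (37.3%, exact 95% interval 25.8 to 50.0%) lay within 2 kb of any coding TSS, against 18.0% of the whole list, and 19 of 51 C/EBPβ peaks (37.3%, 24.1 to 51.9%), against 16.4%. Windows around genes hold a TSS by construction, which whole lists need not. Of the PU.1 peaks 42 were intergenic, 19 intronic and 6 exonic, and of the C/EBPβ peaks 33, 16 and 2.

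The share of peaks at which PU.1 and C/EBPβ met was higher at the cytokine loci than over all genes. Of the 51 MAC C/EBPβ peaks, 33 (64.7%, exact 95% interval 50.1 to 77.6%) overlapped a MAC PU.1 peak by at least 1 bp, against 43.7% in all coding gene windows and 42.5% in the whole list. Of the 67 MAC PU.1 peaks, 33 (49.3%, 36.8 to 61.8%) overlapped C/EBPβ, against 28.7% and 28.5%. Both intervals lie above the values for all windows. Within the gene spans alone, the share of C/EBPβ peaks was 56.2% of 16 (29.9 to 80.2%), and that of PU.1 peaks 58.8% of 17 (32.9 to 81.6%). The first interval holds 43.7%, but that value is of windows with flanks, and none was computed for the spans of all genes. The intervals cover counting error in 1 pair of libraries, and peaks of 1 locus are not independent of each other. With at least 200 bp shared, C/EBPβ peaks were at 58.8% (44.2 to 72.4%), against 36.3% in all windows and 35.6% in the whole list. PU.1 peaks were at 44.8% (32.6 to 57.4%), against 23.7% and 23.8%, and both intervals lie above these values. With centres within 100 bp, the C/EBPβ share was 39.2% (25.8 to 53.9%), against 28.4% in all windows and 28.0% in the whole list. Its interval holds both values, so that under this rule the C/EBPβ peaks no longer stand apart. The share of PU.1 peaks was then 29.9% (19.3 to 42.3%), against 18.6% and 18.7%, just below its interval. The centres of the 33 shared peaks were a median of 60.0 bp apart, from 9 to 313 bp, against 65.0 bp in the whole list, and 60.6% were within 100 bp, against 65.9%.

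Merging the peaks of all lists gave 86 regions at the loci. Of these, 33 were bound by both factors in MAC, 34 by PU.1 alone, 18 by C/EBPβ alone, and 1 had no MAC peak. In peaks, PU.1 without C/EBPβ was 1.89 times as frequent as C/EBPβ without PU.1 at the loci, against 1.94 times in all coding gene windows. PU.1 alone against C/EBPβ alone was 8 to 1 regions at Tnf, 4 to 1 at Il12b, 7 to 3 at Tgfb1, 4 to 3 at Il1rn, 3 to 2 at Nos2, 2 to 1 at Il1b and Il10, 1 to 1 at Il6, 3 to 4 at Il1a and 0 to 1 at Ptgs2. Tnf and Il1a had 6 shared regions each. Il1rn had 5 shared regions, Il1b, Il10, Il12b and Tgfb1 had 3 each, Nos2 had 2, and Il6 and Ptgs2 had 1 each. Of the 86 regions, 15 had a peak in MES, HB or HP, and 8 were found in 3 or more lists. These 8 lay 2 each in the windows of Il1a and Tgfb1 and 1 each in those of Tnf, Il1b, Il12b and Ptgs2. In 57 regions the nearest coding TSS was that of the member.

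**Figure D4:**
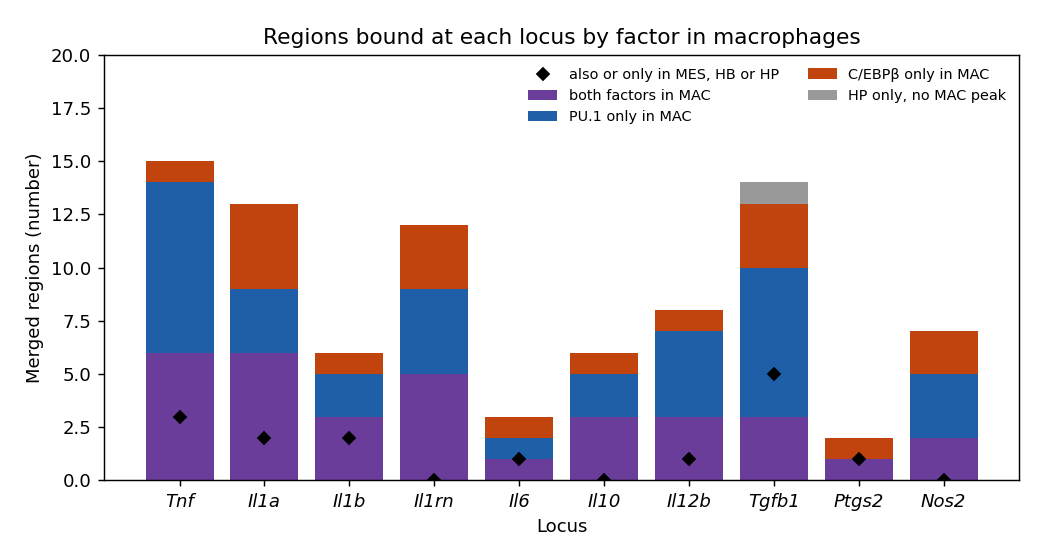
Number of merged regions at each locus by the factors found there in MAC (stacked bars), with black diamonds for the number of regions that held a peak in MES, HB or HP. Tnf has the tallest bar, with 15 regions, of which 8 are PU.1 alone, and diamonds stand at 0 for Il1rn, Il10 and Nos2.

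To see which sequences the peaks held, the words given above were counted in the MAC peaks at the loci and in the whole lists. They were also counted in windows of 400 bp placed 2 kb away from each peak on both sides. Such windows can lie inside the loci. Those that overlap another peak were not removed, so the windows are not all unbound sequence. The C/EBP word was found in 12 of 51 C/EBPβ peaks (23.5%, exact 95% interval 12.8 to 37.5%). It was in 14.9% of the whole list and 3.92% of the windows beside the peaks. In PU.1 peaks at the loci it was found in 8 of 67 (11.9%, 5.3 to 22.2%), against 3.21% of the whole list and 3.73% beside. The PU.1 word was found in 11 of 67 PU.1 peaks (16.4%, 8.49 to 27.5%), against 24.4% of the whole list and 5.22% beside. The interval for the C/EBP word in PU.1 peaks lies above the whole list, and those for each factor's own word include it. The windows beside the PU.1 peaks have an interval of 1.22 to 8.49% for the C/EBP word, which overlaps that of the PU.1 peaks. Beside the PU.1 word the windows have 2.13 to 10.5%, which overlaps as well, and beside the C/EBP word in C/EBPβ peaks 1.08 to 9.74%, which does not.

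Words of NF-kB and AP-1, which were not mapped, and of RUNX and GATA factors, which had 0 peaks at the loci, were also counted as descriptions of the sequence. The NF-kB word is the site of the TF that is activated by TNF and interleukin-1. It was found in 11 of 67 PU.1 peaks (16.4%, 8.49 to 27.5%), against 5.40% of the whole list and 8.21% beside the peaks. In C/EBPβ peaks it was found in 6 of 51 (11.8%, 4.44 to 23.9%), against 4.53% and 4.90%. The AP-1 word was found in 16 of 67 PU.1 peaks (23.9%, 14.3 to 35.9%), against 15.8% and 11.2%, and in 13 of 51 C/EBPβ peaks (25.5%, 14.3 to 39.6%), against 23.3% and 10.8%. The NF-kB share in PU.1 peaks exceeded that of the whole list beyond its interval. The interval of the windows beside the same peaks, 4.17 to 14.2%, overlapped that interval. By merged region, the AP-1 word lay in 20 of 86 and the NF-kB word in 13 of 86, with 5 of the AP-1 regions at Il10 and 3 of the NF-kB regions each at Il12b and Tgfb1. RUNX words were found in 8 of 67 PU.1 peaks (11.9%) and 7 of 51 C/EBPβ peaks (13.7%). They were in 10.3% and 11.1% of the whole lists and in 8.21% and 7.84% of the windows beside the peaks. GATA words were found in 4 of 67 PU.1 peaks (5.97%, 1.65 to 14.6%), against 8.19% of the whole list and 11.9% (6.98 to 18.7%) beside. In C/EBPβ peaks they were found in 2 of 51 (3.92%, 0.478 to 13.5%), against 8.00% and 15.7% (9.24 to 24.2%). The GATA words were thus fewer in the peaks than beside them, with intervals that overlap for both factors.

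**Figure D5:**
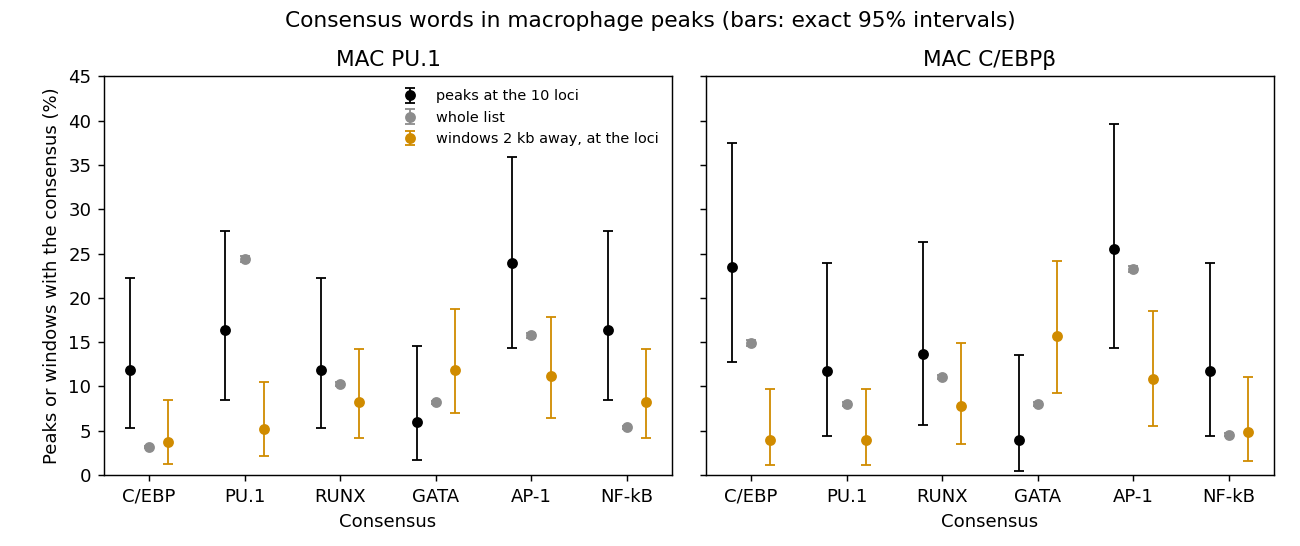
Percentage of MAC PU.1 peaks (left) and MAC C/EBPβ peaks (right) that hold each word, at the 10 loci (black), in the whole list (grey) and in windows 2 kb from the peaks of the loci (orange), with exact 95% intervals. At the loci the C/EBP and NF-kB words stand above the whole list in PU.1 peaks, at 11.9% and 16.4%, and the PU.1 word stands below it, with an interval that includes 24.4%.

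The loci were set beside 3 lists of related genes. For 15 receptors of the member cytokines and prostaglandins, MAC PU.1 lay at 15 of 15 loci with a median of 11.0 peaks and MAC C/EBPβ at 15 of 15 with a median of 7.0. Per 10 kb these medians were 1.08 and 0.838, close to the 1.19 and 0.872 of the members. Tnfrsf1a, the main receptor of TNF, had 20 PU.1 peaks and Tgfbr2 had 19, and Ptger4, a prostaglandin receptor, had 2. For 15 other ligands and enzymes of myeloid inflammation, both factors again lay at 15 of 15, with medians per 10 kb of 0.858 and 0.715. Csf1, the growth factor of macrophages, had 15 PU.1 peaks, and Tgfb3 and Casp1 had 2 each. For 10 cytokines of lymphocytes, PU.1 lay at 8 of 10 loci and C/EBPβ at 4 of 10, with medians per 10 kb of 0.533 and 0, and Il17a and Il22 had 0 peaks of either. These lymphocyte loci were near the values for all coding genes for PU.1 (79.1% of windows, median 0.524) and below them for C/EBPβ (73.8%, median 0.317). In HP, PU.1 lay at 12 of 15 receptor loci, 8 of 15 loci of the other ligands and enzymes, 5 of 10 members and 4 of 10 lymphocyte cytokines, and C/EBPβ at 4, 3, 5 and 0 of them. Of all coding gene windows, 38.2% had an HP PU.1 peak and 14.8% an HP C/EBPβ peak. The differences between lists were not tested.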

How the data were processed

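ChIP-seq peak lists of 7 factors at 5 stages were used, 1 list per factor and stage, grouped by the sample labels. According to the methods of the study, the authors trimmed reads with CutAdapt, aligned them with Bowtie to mm10, kept uniquely placed reads, removed duplicates with Picard, called peaks with MACS against input at a threshold chosen by eye for each list, and refined them with polyPeak. HE samples contained carrier mRNA and histone. Versions are not given in the sources used here. The deposited values are peak starts and ends in bp, each peak being 400 bp wide, with no score, so no stricter threshold could be tried.

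Here, peaks overlapping each RefSeq GRCm38 gene span with 20 kb on each side were counted, and the same windows were drawn for 21774 protein-coding genes. TSS were those of 26032 curated coding transcript starts. Positions are distances of peak centres from the outermost coding TSS, negative upstream. Shares carry exact Clopper-Pearson 95% intervals. No test was made, because each group had 1 list. Reference sequence is of another strain than 129. Every member was named, and from the related lists up to 4 loci by most and fewest MAC PU.1 peaks. The members and lists were chosen with earlier results of these data known. Calculations used Python 3.11.15, NumPy 2.4.6, SciPy 1.17.1, pysam 0.24.0 and Matplotlib 3.10.9, and overlap counts and word searches were tested on simulated peaks.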

Additional observations from a re-analysis of the deposited data

How the results depend on the processing

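Windows and the assignment of peaks were varied for all lists, the overlap rule for MAC and HP PU.1 and C/EBPβ, and the words for MAC PU.1 and C/EBPβ. With 1 list per group no value had a replicate error. MAC C/EBPβ kept a peak at 10 of 10 loci under each window and assignment, and MAC PU.1 at 10 of 10 except with no flank, at 9. With no flank, peaks numbered 1 in MES C/EBPβ, 1 in HB C/EBPβ, 2 in HP C/EBPβ, 1 in HP PU.1, 16 in MAC C/EBPβ and 17 in MAC PU.1, and the first 4 lists had peaks at 1, 1, 2 and 1 loci. With 10 kb, MES, HB and HP C/EBPβ had 1, 1 and 3 peaks at 1, 1 and 3 loci. With 50 kb, MES ELK4, HP GFI1B and HP RUNX1 each had 1 peak at 1 locus, and HP PU.1 had 20 peaks, MAC C/EBPβ 92 and MAC PU.1 133. With peaks taken only where the nearest coding TSS was the member's, MES, HB and HP C/EBPβ had 1, 1 and 2 peaks at 1, 1 and 2 loci, HP PU.1 had 4 at 3 loci, and MAC PU.1 had 43.

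The share of MAC C/EBPβ peaks on PU.1 ranged from 56.2% with no flank (29.9 to 80.2%) to 64.7%, and that of PU.1 on C/EBPβ from 44.4% with 50 kb to 58.8% with no flank, except that with centres within 100 bp they were 39.2% and 29.9%. The share of HP PU.1 peaks found in MAC was 100% of 1 peak with no flank and 100% of 4 peaks by nearest TSS, and that of MAC PU.1 peaks found in HP was 5.88% with no flank. Shorter core words, with fewer letters fixed, were found in 82.4% of MAC C/EBPβ and 100% of MAC PU.1 peaks at the loci. They were also in 78.4% and 99.9% of the whole lists and in 60.8% and 98.5% of the windows beside the peaks. The short PU.1 word thus tells nothing apart. A count was taken as moved when it changed by more than 1.5 times, or to or from 0, and a share when it left the exact 95% interval of its main value. By these limits 138 alternative values stayed and 41 moved. Most of those that stayed were counts of 0 that remained 0, in the lists with no peak at the loci. The tally therefore says little about the other values. List lengths, the missing scores and read depth, which the lists do not give, limit every count.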
